A study of Rattus norvegicus with 3 samples.

Results

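The nuclear-encoded subunits of respiratory complexes II, III, IV and V and cytochrome c were followed across 3 rat leg muscle samples. The members were all rat genes in RefSeq whose symbols begin with Uqcr, Cox4, Cox5, Cox6, Cox7, Cox8 or Atp5, together with Sdha, Sdhb, Sdhc, Sdhd, Cyc1 and Cycs. They were found on the array through the RefSeq accession of each probe. The rule named 124 genes, of which 64 are protein coding and 59 are annotated pseudogenes. Of these, 45 were found among the 15168 genes that could be named on the array, 44 of them protein coding and 1 a pseudogene, Cox6c-ps1. Those 45 genes were read by 56 probes in 147 spots. Of the 45, 44 were well above background on all 3 arrays, and the testis isoform Cox8c was so on none. Another 20 protein-coding genes of the rule had no probe that could be named here, Cyc1, Cox7a1 and Atp5mc3 among them, and were not analysed here.

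The series holds 1 array for each of 3 muscles from male rats aged 12 weeks, whose strain background is given as Wistar Honnover. The normal soleus is a slow postural muscle, the normal plantaris is a fast muscle of the same calf, and the denervated soleus was taken 28 days after the left sciatic nerve had been cut in the gluteal region, with the transection given as about 5 mm. The normal soleus array was placed by its source name, since its title is the single word Post. How many animals each RNA sample came from is not stated in the labels, and with 1 array per group no difference between muscles has a replicate check.

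Complex II (succinate dehydrogenase) passes electrons from succinate to ubiquinone, complex III passes them from ubiquinol to cytochrome c, and complex IV (cytochrome c oxidase) passes them from cytochrome c to oxygen. Complexes III and IV pump protons across the inner mitochondrial membrane, and complex V, the ATP synthase, uses their return to make ATP. In skeletal muscle the content of these complexes goes with the oxidative capacity of the fibre, and several subunits of complex IV have a muscle and heart isoform beside a broadly expressed one.

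Each signal below is the scanner's processed signal of a gene's brightest probe divided by the 75th percentile of that array, and each fold is a log2 difference of 2 such signals. Signals of different probes are not comparable with each other. A gene was called higher or lower where it was at least 2-fold apart, which is a rule of size and not a test. Each fold of a member carried an error of 0.20 log2 units, which is the scanner software's error for the spots and not the spread between animals. Repeat spots of a member's probe differed by less, with a median SD of 0.026, 0.048 and 0.030 log2 units on the normal soleus, denervated soleus and plantaris arrays.

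All 15 muscle fibre markers were well above background on all 3 arrays. Their summed signal was 3920 times the 75th percentile in normal soleus, 2393 in denervated soleus and 5864 in plantaris. Bright probes carry such a sum, and it is not a measure of fibre content. Actn3 read 0.785 in normal soleus and 605 in plantaris, and Myh7 read 521 and 84.9. In plantaris over soleus 6 of the 15 were called higher and 4 lower, beside 5.71% and 6.02% of all genes. On each array 64.2% to 67.0% of probes were well above background and 0 spots were saturated. The normal soleus and plantaris arrays lay on slide 1 and the denervated soleus array was alone on slide 2, so denervation and slide cannot be told apart in any comparison with the denervated array. In whole muscle, fewer cells of a type and less RNA per cell cannot be told apart either.

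Promoter sequence was given by RefSeq on the build GRCr8 for 38 of the 45 members, as windows of 300 bases reaching from 250 before to 50 after the annotated start. The windows had a median GC content of 56.5%, against 51.7% over all 33469 promoters. They were searched on both strands for short core sequences of factors known for mitochondrial or muscle genes: NRF1 as GCGCA and GCGC parted by 1 base of any kind, GABP as CCGGAAGT, the oestrogen-related receptors (ERR) as TCAAGGTCA, YY1 as AAGATGGC, Sp1 as GGGCGG and MEF2 as CTA and TAG parted by any 4 bases. At least 1 match was found in 27 of the 38 windows, and in 40.8% of all promoters. NRF1 was matched in 6 members (15.8%, against 4.25% of all promoters), YY1 in 6 (15.8%, against 3.17%) and GABP in 5 (13.2%, against 3.81%). Sp1 was matched in 16 (42.1%, against 33.1%), MEF2 in 2 (5.26%, against 3.84%) and ERR in 1 (2.63%, against 0.433%). Of the members with a window, 32 were lower after denervation and 5 measured ones were not: NRF1 was matched in 5 of the former and 1 of the latter, GABP in 4 and 1, YY1 in 5 and 1, Sp1 in 13 and 2, MEF2 in 1 and 1, and ERR in 1 and 0. A match is a description of letters in the window and not a binding site, and a window without one says nothing about the factor.

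The windows below are shown because the results turn on these genes: Sdha and Uqcrc1 as members of complexes II and III with NRF1 matches, Cycs for its place at the low end of the folds, the muscle isoforms Cox6a2 and Cox8b, the broadly expressed Cox8a, and the ATP synthase inhibitor Atp5if1. Capitals mark the motif matches. Sdha (chr1:30764303-30764602, plus strand) has 3 NRF1 matches, beginning 89, 46 and 1 bases before the start. Uqcrc1 (chr8:118467973-118468272, plus strand) has an NRF1 match 64 bases before the start and a YY1 match 1 base before it. Cycs (chr4:80984718-80985017, minus strand) has none. Cox6a2 (chr1:192219667-192219966, minus strand) has a MEF2 match 50 bases before the start. Cox8b (chr1:205408224-205408523, minus strand) has an Sp1 match 49 bases before it. Cox8a (chr1:213833574-213833873, minus strand) has GABP matches 58 and 20 bases before the start and a YY1 match 4 bases before it. Atp5if1 (chr5:150026628-150026927, minus strand) has an Sp1 match 32 bases before the start. Each window is written from 5′ to 3′ on the strand of its gene.
Sdha: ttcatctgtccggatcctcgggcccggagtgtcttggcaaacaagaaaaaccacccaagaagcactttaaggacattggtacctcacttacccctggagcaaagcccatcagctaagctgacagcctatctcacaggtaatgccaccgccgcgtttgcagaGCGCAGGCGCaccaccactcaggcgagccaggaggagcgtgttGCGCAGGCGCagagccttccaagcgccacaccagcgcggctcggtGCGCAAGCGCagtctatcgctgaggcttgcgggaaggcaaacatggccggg
Uqcrc1: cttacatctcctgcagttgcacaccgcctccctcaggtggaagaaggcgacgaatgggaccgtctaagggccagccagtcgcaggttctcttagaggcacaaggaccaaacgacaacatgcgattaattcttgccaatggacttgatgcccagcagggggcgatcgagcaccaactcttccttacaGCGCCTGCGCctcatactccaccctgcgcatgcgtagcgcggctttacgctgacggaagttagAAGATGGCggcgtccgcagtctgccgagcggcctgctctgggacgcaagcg
Cycs: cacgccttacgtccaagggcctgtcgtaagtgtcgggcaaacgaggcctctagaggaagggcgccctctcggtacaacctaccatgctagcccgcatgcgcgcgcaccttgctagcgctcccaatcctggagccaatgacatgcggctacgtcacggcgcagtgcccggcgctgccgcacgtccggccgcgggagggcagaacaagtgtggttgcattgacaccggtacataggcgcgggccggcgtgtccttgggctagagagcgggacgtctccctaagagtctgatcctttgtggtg
Cox6a2: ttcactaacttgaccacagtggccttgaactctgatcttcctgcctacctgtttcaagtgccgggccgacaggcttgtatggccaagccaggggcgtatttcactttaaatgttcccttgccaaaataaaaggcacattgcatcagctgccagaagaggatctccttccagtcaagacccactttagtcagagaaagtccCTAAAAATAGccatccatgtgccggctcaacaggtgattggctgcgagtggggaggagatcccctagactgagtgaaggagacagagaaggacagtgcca
Cox8b: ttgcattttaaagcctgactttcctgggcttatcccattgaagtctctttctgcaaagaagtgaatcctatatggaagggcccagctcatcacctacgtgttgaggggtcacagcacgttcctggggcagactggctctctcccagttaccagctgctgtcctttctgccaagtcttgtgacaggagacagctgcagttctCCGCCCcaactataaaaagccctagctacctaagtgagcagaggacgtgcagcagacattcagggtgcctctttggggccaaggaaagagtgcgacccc
Cox8a: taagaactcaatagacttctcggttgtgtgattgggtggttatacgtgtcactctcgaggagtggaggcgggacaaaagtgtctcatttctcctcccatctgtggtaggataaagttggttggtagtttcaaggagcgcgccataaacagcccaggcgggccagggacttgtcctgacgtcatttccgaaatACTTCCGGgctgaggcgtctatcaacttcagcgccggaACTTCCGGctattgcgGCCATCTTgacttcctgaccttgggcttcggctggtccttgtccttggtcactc
Atp5if1: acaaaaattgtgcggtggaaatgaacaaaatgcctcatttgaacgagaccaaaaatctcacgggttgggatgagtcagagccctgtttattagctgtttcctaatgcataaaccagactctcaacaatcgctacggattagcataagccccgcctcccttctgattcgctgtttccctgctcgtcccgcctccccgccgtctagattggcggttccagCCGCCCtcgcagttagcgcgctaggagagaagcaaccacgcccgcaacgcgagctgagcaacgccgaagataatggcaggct

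**Figure D1:**
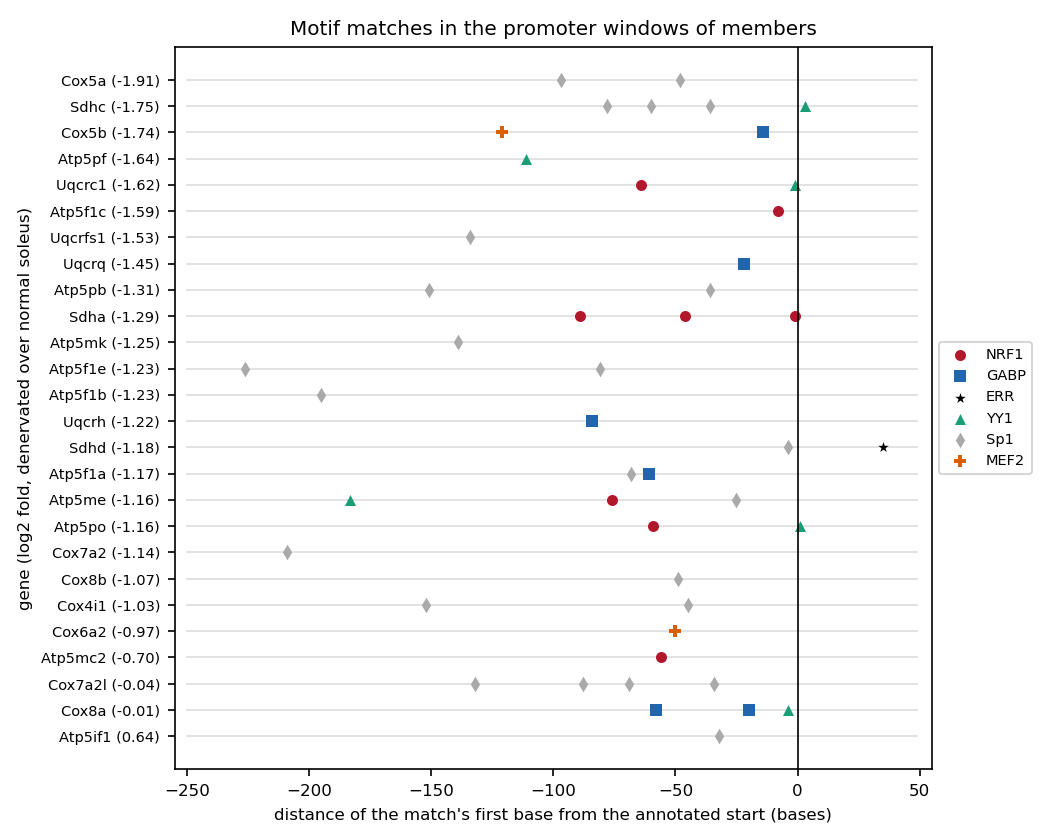
Motif matches in the 300-base promoter windows of the 26 measured members with at least 1 match, ordered by log2 fold in denervated over normal soleus, which stands beside each symbol. The horizontal axis gives the distance in bases of each match from the annotated start (vertical line), and GABP and YY1 matches are seen both in genes that were lower and in Cox8a, whose fold was -0.01.

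Plantaris was set against soleus as a fast against a slow muscle. No member was at least 2-fold higher or lower in plantaris than in soleus. Of the 11015 genes measured in this comparison, 5.71% were called higher and 6.02% lower, and of the 500 brightest genes 14.8% were called in either direction. The 44 members had a median log2 fold of 0.13, beside 0.02 over all genes, and 11 of them were below 0, as were 47.9% of all genes. Their folds ran from -0.67 in Cox8a, a broadly expressed complex IV subunit, to 0.45 in cytochrome c.

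By complex the medians in plantaris over soleus were 0.13 for complex II, 0.20 for complex III, 0.07 for complex IV and 0.13 for complex V. The signs of these small folds depended on the scaling. Under quantile normalization 26 of the 44 members changed sign and the median of the members was -0.28. Across the settings tried Cox8a stayed between -0.81 and -0.61, Atp5if1 between -0.66 and -0.49, and Cox6a1 between -0.60 and -0.38. Which member was lowest depended on the setting, since Cox8b fell from -0.31 to -0.88 with quantile normalization and Atp5mg from -0.03 to -0.66.

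Denervated soleus was set against normal soleus to see what the loss of the nerve changed. Of 44 members 36 were at least 2-fold lower in denervated than in normal soleus and 0 were higher. Of the 11318 genes measured, 13.4% were called lower and 8.71% higher. The members had a median log2 fold of -1.30, or 40.7% of the normal soleus signal, beside a median of 0.02 over all genes, and 43 of 44 were below 0, against 48.8% of all genes. Without the pseudogene 35 of 43 were lower.

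The members are bright genes, and bright genes were more often called lower after denervation than all genes were. Of the 500 brightest genes 31% were called lower, with a median of -0.34. Among these 500 were 38 members, of which 32 were lower with a median of -1.27. Of the other 462 bright genes 123 were lower, with a median of -0.28. Brightness here is the signal of each gene's own probe, and its part in the member folds was not tested.

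How many members were called lower depended on the scaling. With the authors' deposited values 24 were lower, with quantile normalization 19, and with folds taken relative to the 500 brightest genes, a choice made after seeing the data, 20. Under every setting tried 18 of the 36 were lower, and 40 of the 44 members were below 0. The same choices moved the calls over all genes, from 986 higher and 1518 lower to 1568 higher and 1107 lower with the authors' values, 1931 and 983 relative to the brightest genes, and 367 and 1001 with another background correction (normexp).

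**Figure D2:**
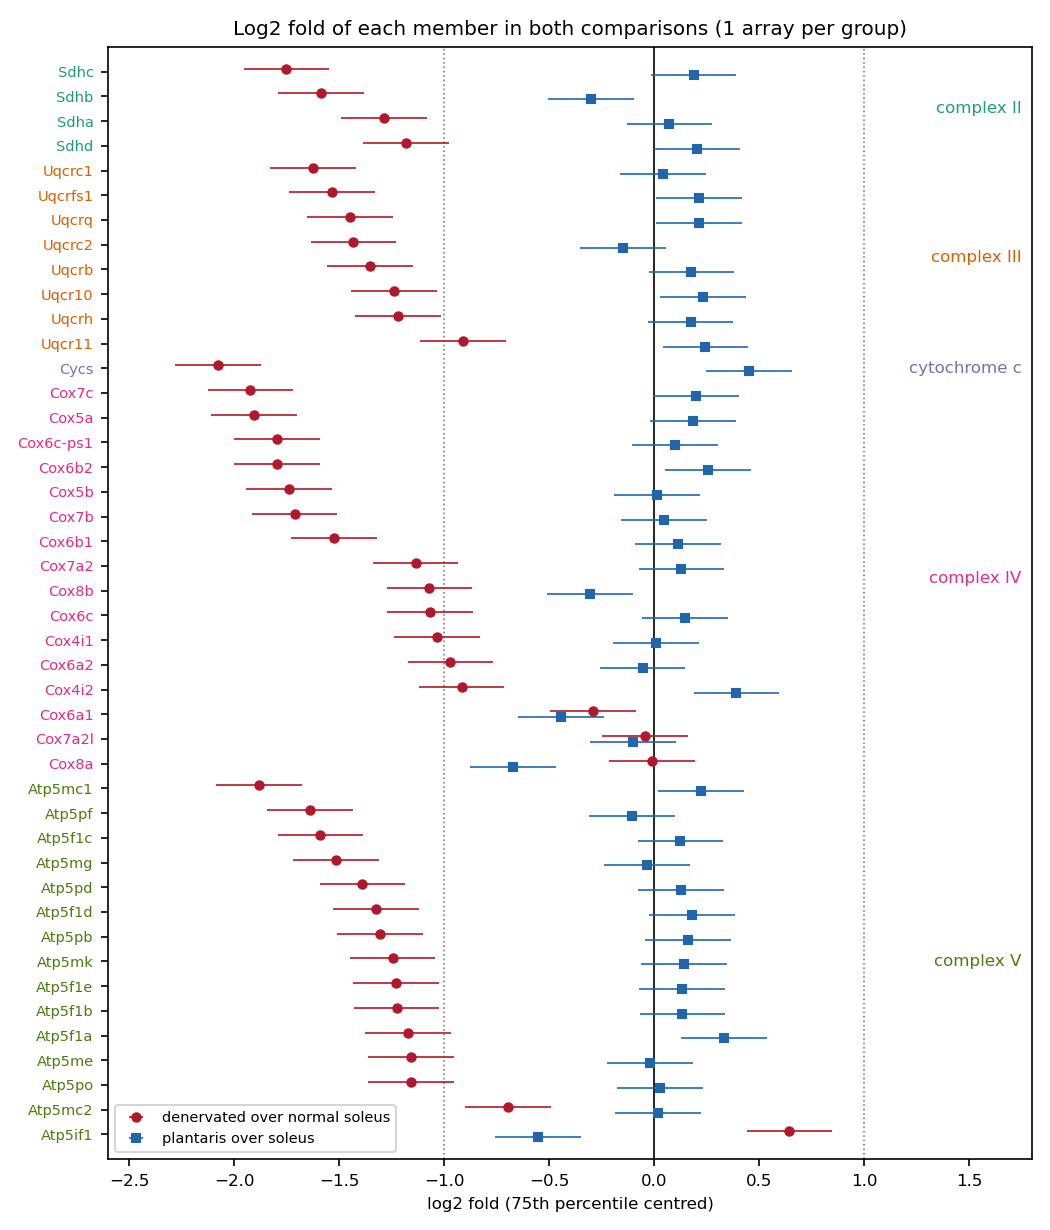
Log2 fold of each of the 44 measured members in denervated over normal soleus (circles) and plantaris over soleus (squares), grouped by complex. Bars are the scanner software's error of the fold (0.20), dotted lines mark 2-fold, and the circles lie left of the lower line for 36 members while no square reaches either line.

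**Figure D3:**
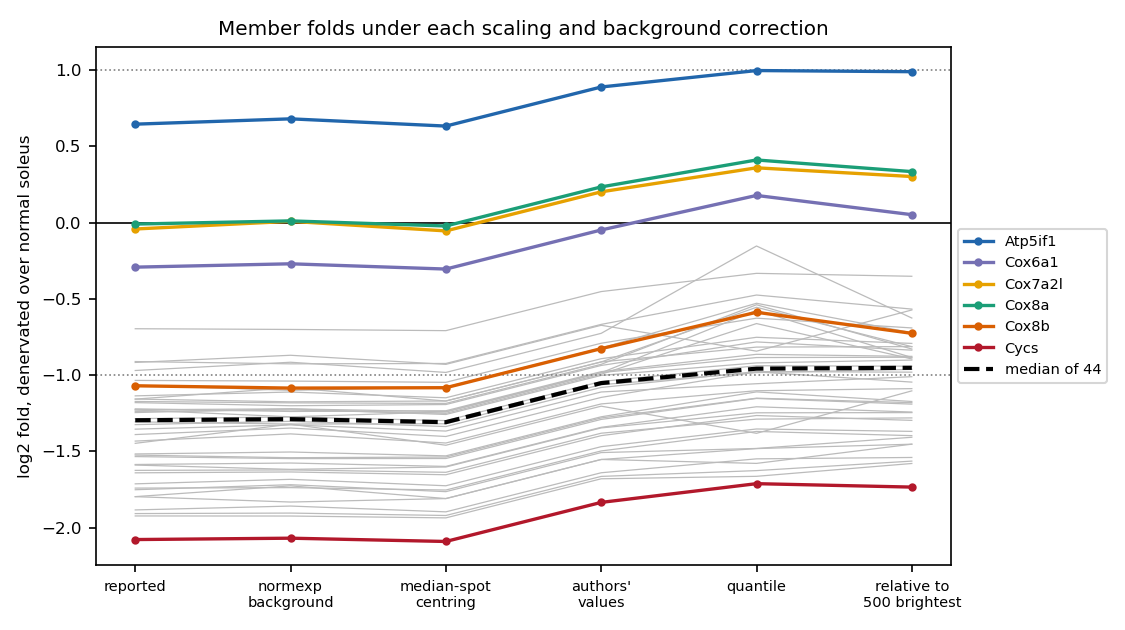
Log2 fold in denervated over normal soleus of each member (1 line each) under the reported setting, 1 other background correction and 4 other scalings, with the median of the 44 dashed. The lines lie higher towards the right, by unequal amounts with quantile normalization (Cox6a2 moves from -0.97 to -0.15 and Cycs from -2.08 to -1.71). The median reaches -0.96 with quantile normalization and -0.95 relative to the 500 brightest genes, while Atp5if1 stays at the top and Cycs at the bottom.

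In complex II all 4 subunits were called lower in denervated soleus, with a median of -1.44. Sdha, the flavoprotein that oxidises succinate, had a signal of 30.3 in normal soleus, 31.9 in plantaris and 12.4 in denervated soleus, a log2 fold of -1.29 after denervation. Sdhb, which carries the iron-sulphur clusters, stood at 65.7, 53.3 and 21.9 on the same arrays (-1.59). These 2 make up the part that reaches into the matrix.

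The membrane anchors Sdhc and Sdhd, like Sdha, read highest in plantaris under the reported scaling, whereas Sdhb read highest in normal soleus. For Sdha and Sdhc the normal muscles differed by less than the scanner's error. Across the settings tried the folds in plantaris over soleus reached down to -0.098 for Sdha and -0.005 for Sdhd. Sdhc was at 21.7 in normal soleus, 24.8 in plantaris and 6.46 in denervated soleus, with the lowest fold of the complex at -1.75. Sdhd was at 55.5, 63.9 and 24.5 (-1.18). The normal muscles differed by 0.30 log2 units or less in each of the 4 subunits, and the denervated array was the lowest for all 4. With quantile normalization the median of complex II was -1.07.

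Of 8 measured complex III subunits 7 were called lower, with a median of -1.39. The lowest was Uqcrc1, a core subunit whose promoter window is shown above, at 38.2 in normal soleus, 39.4 in plantaris and 12.4 in denervated soleus (-1.62). Its partner core subunit Uqcrc2 was at 27.5, 24.8 and 10.2 (-1.43). The Rieske iron-sulphur protein Uqcrfs1, which hands electrons on to cytochrome c1, had a fold of -1.53.

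Uqcr11, a small accessory subunit, stood at the 2-fold line. Its brightest probe, with 1 spot, read 86.4 in normal soleus, 102 in plantaris and 45.9 in denervated soleus (-0.91), so Uqcr11 was not called lower. Its other probes gave -0.96 (1 spot) and -1.04 (2 spots), the last of which is past 2-fold. For Uqcrb, the ubiquinone-binding protein of the complex, 2 probes disagreed. The brighter probe had 1 spot, so no repeat-spot error was available for it. It read 152, 171 and 59.3 on the normal soleus, plantaris and denervated arrays, with folds of 0.18 for plantaris and -1.35 after denervation. The other probe, with 10 spots, was far dimmer at 0.287, 0.678 and 0.271, and its folds were 1.24 and -0.084. The call of Uqcrb therefore rests on its brighter probe, and with the mean over probes its fold after denervation was -0.72. The other 3 subunits, Uqcr10, Uqcrh and Uqcrq, lay between -1.45 and -1.22.

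Under the reported setting cytochrome c, the mobile carrier between complexes III and IV, was the lowest of all members after denervation. Under that setting it was also the highest in plantaris over soleus. Cycs read 93.8 in normal soleus, 128 in plantaris and 22.2 in denervated soleus, folds of 0.45 and -2.08. A second probe for Cycs gave 0.27 and -2.19. With the mean over probes Cycs was at -2.13 after denervation and the pseudogene Cox6c-ps1 was lower, at -2.24. Both comparisons share the normal soleus array. With quantile normalization the folds were 0.10 and -1.71, and Cox4i2, at 0.31, was then the highest member in plantaris.

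Complex IV holds the subunits with tissue isoforms. The pseudogene Cox6c-ps1 and Cox7a2l, both described below, are counted among its 16 measured members. Of these 16, 11 were called lower, with a median of -1.10 and a range from -1.92 to -0.01. The lowest was Cox7c, read by 1 spot, at 20.9 in normal soleus, 24.0 in plantaris and 5.52 in denervated soleus (-1.92). Cox5a, Cox5b, Cox6c, Cox7b and Cox7c, which are nuclear subunits without a tissue isoform in this set, were all lower, with a median of -1.74. Cox7a2, the broadly expressed partner of the muscle isoform Cox7a1, read 107, 118 and 48.9 (-1.14), and its other probe gave -0.76. Cox7a1 was not analysed here.

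The pseudogene Cox6c-ps1 had a fold of -1.80 and Cox6c itself one of -1.07. A probe for a pseudogene can also bind the transcript of its parent gene or of other copies, so its value is uncertain. Its fainter probe read -2.69.

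After denervation the isoform pairs of complex IV separated in 2 cases out of 4. Cox6a2, the muscle and heart isoform whose window above holds a MEF2 match, stood at 431 in normal soleus, 415 in plantaris and 220.0 in denervated soleus (-0.97). Its broadly expressed partner Cox6a1 stood at 52.7, 38.8 and 43.0 (-0.29). The difference between these folds was -0.68 ± 0.29 by the scanner's error, with an error of 0.064 from repeat spots, and it was -0.33 with quantile normalization.

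For subunit 8 the gap was wider. Cox8b, the muscle and heart isoform, read 228 in normal soleus, 184 in plantaris and 109 in denervated soleus (-1.07). Cox8a, the broadly expressed isoform, read 34.0, 21.3 and 33.7 (-0.01), so its normal and denervated soleus signals were level and plantaris was the low array. The difference between the folds was -1.06 ± 0.29, and a difference of folds on the same arrays does not depend on how the arrays are centred.

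The other pairs did not separate after denervation. Cox4i1, the main isoform of subunit 4, read 195, 196 and 95.1 in normal soleus, plantaris and denervated soleus (-1.03), and the lung-enriched, oxygen-responsive Cox4i2 read 2.15, 2.82 and 1.14 (-0.92). The difference was -0.12 ± 0.29. Cox6b1 read 55.04, 59.5 and 19.1 (-1.52), and its other probes gave -1.43 and -1.87. Each probe of this pair had 1 spot, so no repeat-spot error was available. The testis-enriched paralogue Cox6b2 read 15.5, 18.6 and 4.47 (-1.80), which lies between the folds of the Cox6b1 probes. With the brightest Cox6b1 probe the difference was 0.27 ± 0.29. Neither difference was larger than the scanner's error.

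In plantaris over soleus the same isoform differences were all less than 2-fold. They were 0.39 for Cox6a2 minus Cox6a1, 0.37 for Cox8b minus Cox8a, -0.38 for Cox4i1 minus Cox4i2 and -0.14 for Cox6b1 minus Cox6b2, each ± 0.29. The first 3 of these were larger than the scanner's error. With quantile normalization they became 0.064, -0.072 and -0.93 for the first 3 pairs, so the sign of the Cox8 difference turned.

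Cox7a2l, which bridges complexes III and IV in respiratory supercomplexes, hardly differed between the arrays. It read 28.8 in normal soleus, 26.8 in plantaris and 27.9 in denervated soleus, with folds of -0.10 and -0.04. Cox8a, Cox7a2l and Cox6a1 were the 3 members whose sign after denervation turned with the scaling: with quantile normalization they stood at 0.41, 0.36 and 0.18, and with the authors' values at 0.23, 0.20 and -0.05. Under each of these settings they stayed above all other members except Atp5if1.

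**Figure D4:**
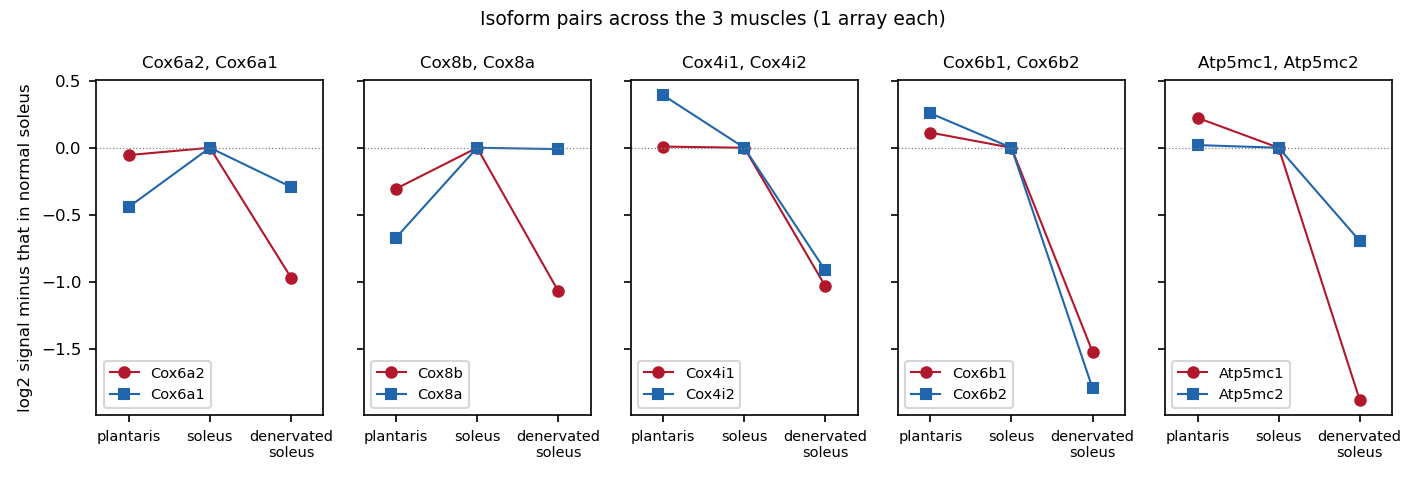
Log2 signal of each isoform pair in plantaris, normal soleus and denervated soleus, relative to its own signal in normal soleus (0 by construction, 1 array per muscle). The lines part at denervated soleus for Cox6a2 and Cox6a1 (-0.97 and -0.29), Cox8b and Cox8a (-1.07 and -0.01) and Atp5mc1 and Atp5mc2 (-1.88 and -0.70). At denervated soleus those of Cox4i and Cox6b run together.

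In complex V 13 of 15 measured members were called lower, with a median of -1.25. All 5 subunits of the catalytic F1 head were lower, with a median of -1.23 and folds from -1.59 in Atp5f1c, the central shaft, to -1.17 in Atp5f1a. Atp5f1a, the alpha subunit, read 339 in normal soleus, 428 in plantaris and 151 in denervated soleus. Its fold of 0.33 was the highest of the complex in plantaris under the reported scaling, and it ran from -0.21 to 0.40 across the settings tried. All 4 measured subunits of the peripheral stalk, which holds the head still, were lower (median -1.35). So were the 3 small membrane subunits Atp5me, Atp5mg and Atp5mk (median -1.25).

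The c ring turns in the membrane as protons pass, and its subunit is made from several genes that encode the same mature protein. Atp5mc1 read 188 in normal soleus, 220.0 in plantaris and 51.1 in denervated soleus, the lowest fold of the complex at -1.88. Atp5mc2 read 153, 155 and 94.5 (-0.70), and its other probe gave -0.98. The difference between the folds was -1.19 ± 0.29, and it was 0.20 ± 0.29 in plantaris over soleus. The third gene, Atp5mc3, was not analysed here.

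Atp5if1 is the inhibitor that binds the F1 head and blocks ATP hydrolysis. Under the reported scaling it was the only member with a higher signal after denervation. It read 13.4 in normal soleus, 9.14 in plantaris and 21.0 in denervated soleus. The denervated signal was 156% of the normal one, a log2 fold of 0.64, which did not reach 2-fold and ranged from 0.632 to 0.996 across the settings. In denervated soleus over plantaris its fold was 1.20. There 37 of 44 members were called lower and Atp5if1 alone higher, beside 16.7% and 11.8% of 11371 genes. Of the 500 brightest genes 178 were lower and 27 higher in that comparison. It was not run under the other settings, so how its counts depend on the scaling was not tested. The 15 members of complex V thus held 14 subunits of the enzyme below their signal in normal soleus, from 27.1% in Atp5mc1 to 61.7% in Atp5mc2, and its inhibitor above it.

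Read over the 3 muscles under the reported scaling, 33 of the 44 members had the order plantaris, normal soleus, denervated soleus from high to low. Another 7 had soleus above plantaris with the denervated array still lowest. This order was not counted over all genes. The 4 others, Atp5if1, Cox6a1, Cox7a2l and Cox8a, were lowest in plantaris. In 29 of the 44 the normal muscles differed by less than the scanner's error of their fold, so the order of these neighbours is not resolved there. Their order also depended on the scaling: with quantile normalization 37 of the 44 were below 0 in plantaris over soleus, beside 11 under the reported scaling.

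Other mitochondrial gene lists were read beside the 13.4% of all genes called lower after denervation. Of 32 complex I subunits, the entry point of the chain left out of the member rule, 21 were called lower (median -1.18), from Ndufb5 at -2.03 to Ndufv3 at -0.45. Ndufa4, which carries a complex I name but is counted as a complex IV subunit today, was at -0.94. Of 11 other partners of the chain and the ATP synthase 7 were lower (median -1.44). The lowest were the electron transfer flavoprotein subunit Etfa (-1.91), Coq10a (-1.83), the ADP/ATP carrier Slc25a5 (-1.64) and Etfdh (-1.496). The sulphide oxidase Sqor (0.64) and Coq10b (0.57) of that list lay above their signal in normal soleus.

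Of 38 measured assembly factors of complexes II to V 8 were lower and 30 within 2-fold, with a median of -0.74, and the difference from the subunits was not tested. The lowest were the ATP synthase chaperone Atpaf1 (-1.52), the cytochrome c haem lyase Hccs (-1.35), Coa5 (-1.31) and Lrpprc (-1.24), which stabilises mitochondrial transcripts. Of 13 measured genes for the outer membrane, import and cristae 7 were lower (median -1.02), with Chchd3 at -1.62 and Timm23 at -1.52. Of 66 mitochondrial ribosome genes 13 were lower and 53 within 2-fold (median -0.62), with Mrpl47 at -1.54. No gene of these 5 lists was called higher after denervation. In plantaris over soleus 2 of them were called, the ADP/ATP carrier Slc25a4 (1.99) and the glycerol phosphate dehydrogenase Gpd2 (1.34), both higher.

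**Figure D5:**
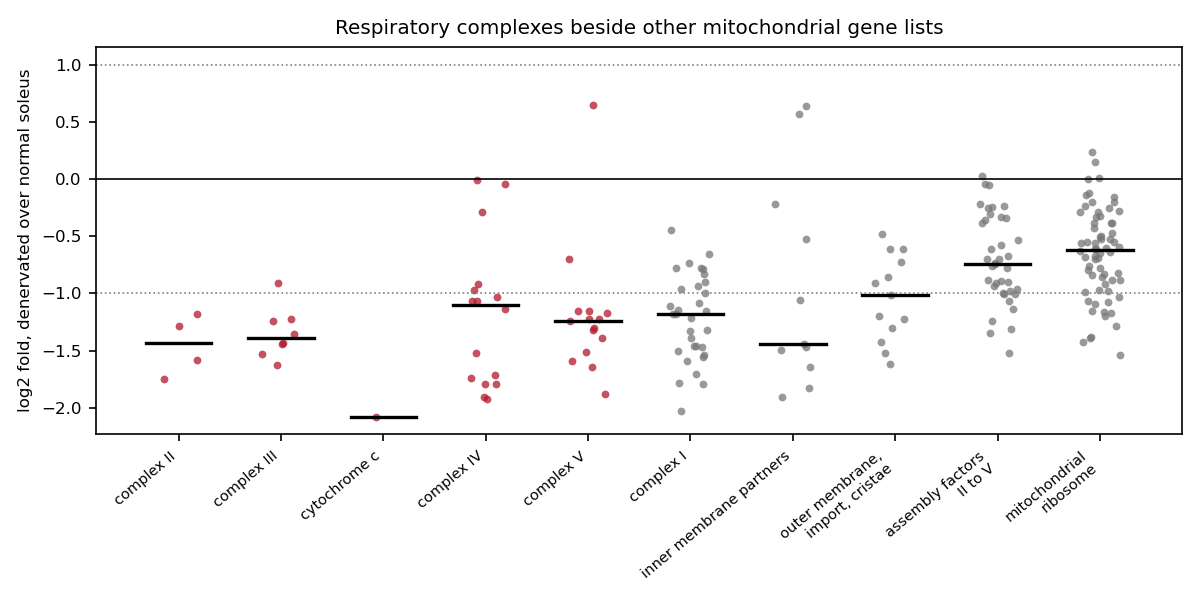
Log2 fold in denervated over normal soleus of each gene in the respiratory complexes (red) and in 5 other mitochondrial gene lists (grey), with the median of each list as a black bar and 2-fold as dotted lines. Complex IV here includes the pseudogene Cox6c-ps1 and Cox7a2l. The bars of complexes II to V lie between -1.44 and -1.10, that of cytochrome c, a single gene, at -2.08, that of complex I at -1.18, and those of assembly factors and mitochondrial ribosome at -0.74 and -0.62.

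Markers of some other cell types differed between the same arrays. Of 7 measured fat cell markers 5 were called higher after denervation (median 2.52, Adipoq 3.65), and Lep was not well above background on any array. The summed signal of the 8 on the array was 23.5 in normal soleus, 76.1 in denervated soleus and 13.8 in plantaris, and bright probes carried it: Cfd went from 9.36 to 49.4 after denervation, and Cidea was 8.08 in normal soleus and 0.807 in plantaris. Of 9 fibroblast and tendon markers 2 were called higher after denervation and all 9 lay above 0 (median 0.89). Their sum was 119 in normal soleus, 271 in denervated soleus and 212 in plantaris, where Col1a1 (1.59) and Fmod (1.36) were higher and 4 of the 9 were below 0. Of 7 endothelial markers on the array 3 were lower, and their sum went from 13.0 to 6.82. Of 7 macrophage, 4 blood cell and 3 measured brown fat markers 0 were called after denervation. The brown fat marker Ucp1 was not well above background on any array, and Dio2 was so in denervated soleus alone. Cidea is counted in both the fat cell and the brown fat lists. Of 5 smooth muscle markers 1 was lower, and of 6 Schwann cell markers 2 were higher and 3 lower. Over all genes 8.71% were called higher and 13.4% lower after denervation. The part of these cells in the member folds was not tested. Of the muscle fibre markers 6 were called lower after denervation and 3 higher, with a median of -0.52, while myoglobin (Mb) stood at -0.18 and the creatine kinase Ckm at -1.48.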

How the data were processed

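Total RNA (0.1 ug) of each muscle was labelled with Cy3 and hybridised to 1 of 3 one-colour Agilent arrays, per the labels' protocols. Per the file headers, the arrays were quantified with Agilent Feature Extraction 10.10.1.1 by protocol GE1_1010_Sep10, on an array design drawn on the rat build rn4. Per the file headers, the processed signal is a linear intensity, background-subtracted by that software and not normalized between arrays, and the other columns used hold flags of 0 or 1 for spots well above background, saturated or outlying. The authors' deposited value table is also an intensity, which equalled the processed signal times 1.60, 1.41 and 1.80 on the normal soleus, denervated soleus and plantaris arrays. The origin of these factors is not stated in the labels or headers.

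From each log2 processed signal the array's 75th percentile over its 58717 non-control spots was subtracted. Outlier spots (467 to 569 per array) were left out, repeat spots averaged, and probes called well above background if 50% or more of their spots were. Probes were named by RefSeq accession (18005 of 30367), the brightest probe stood for a gene, and a gene entered a comparison if well above background on at least 1 of its 2 arrays. With 1 array per group no test across samples was run, and the number of arrays limits the precision. Members whose signals are printed were those of complex II, cytochrome c, the isoform pairs, the extremes of complexes III, IV and V, those not called lower after denervation, and those with disagreeing probes. From the other lists up to 4 genes with the largest folds were named, and Ndufv3, Ndufa4, Sqor, Coq10b and the cell markers were named after their values were seen. The members and lists were chosen with earlier results of these data known.

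The calculation was tested on simulated data, made from copies of the normal soleus array with known folds planted equally up and down. Apart from these folds the copies differed by a constant scale and random noise. The test therefore cannot say how well the scaling handles differences between real arrays. Alternatives were normexp (offset 50, limma 3.58.1 in R 4.3.3), quantile normalization, centring on the median spot, the authors' values, the mean over probes, 2 other filters on dim probes, outlier spots kept, a 1.5-fold rule and folds relative to the 500 brightest genes. Normexp was run on the median spot signal in place of the planned mean signal.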

Additional observations from a re-analysis of the deposited data

How the results depend on the processing

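No paired analysis was possible because each group holds 1 array. No replicate could be left out for the same reason, and repeat-spot and scanner errors cover the array and not the animals. The 10 settings were tried on the 2 comparisons with normal soleus. In these no member changed from higher to lower or back. In plantaris over soleus no setting that kept the 2-fold rule called any member, and a 1.5-fold rule called 1 lower (Cox8a). In denervated over normal soleus a 1.5-fold rule called 1 higher (Atp5if1) and 40 lower. Centring on the median spot, normexp, both filters on dim probes and keeping outlier spots changed no member's call, and the mean over probes took Cox7a2 (-0.95) and Uqcrb (-0.72) inside 2-fold.

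The scalings that moved the values after denervation also shifted the median of all genes, by 0.24 with the authors' values, 0.12 with quantile normalization and 0.34 relative to the 500 brightest genes. Normexp and no filter on dim probes shifted all genes by -0.12 and -0.13. With the authors' values the member median was -1.05, and the medians of complex II, III, cytochrome c, IV and V were -1.19, -1.15, -1.83, -0.86 and -1.002. With quantile normalization 19 members were lower, the median was -0.96, and these medians were -1.07, -1.08, -1.71, -0.80 and -0.92. Relative to the 500 brightest genes, a setting added after seeing the data, 20 members were lower, the median was -0.95, and these medians were -1.09, -1.05, -1.73, -0.76 and -0.90. The calls lost numbered 12, 17 and 16. In plantaris over soleus quantile normalization gave a member median of -0.28 and medians of -0.20 for complex III, 0.10 for cytochrome c, -0.28 for IV and -0.40 for V.

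Isoform differences moved beyond their error of 0.29 with quantile normalization alone: in plantaris over soleus to 0.064 for Cox6a2 minus Cox6a1, -0.072 for Cox8b minus Cox8a and -0.93 for Cox4i1 minus Cox4i2, and after denervation to -0.33 for Cox6a2 minus Cox6a1 and 0.22 for Cox4i1 minus Cox4i2. The cause was not tested. All 44 measured members were well above background on all 3 arrays, so none of their folds is a bound.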
